A study of Paraphaeosphaeria sporulosa with 23 samples.

Results

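Overlapping convergent gene pairs were described in the filamentous fungus Paraphaeosphaeria sporulosa, strain AP3s5-JAC2a, grown with or without 0.1 mM sodium selenite, a salt of selenium(IV). A pair was taken where consecutive genes on one scaffold faced each other, the left gene on the plus strand and the right gene on the minus strand, and the left gene ended at or beyond the first base of the right gene. The rule used positions in the deposited count table only and no measured level. It found 584 pairs among 15128 pairs of consecutive genes (3.86%), which were 14.6% of the 3997 convergent pairs. The 584 pairs held 1168 different genes of 15164 (7.7%) and lay on 18 of the 36 scaffolds with genes.

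In a convergent pair the 2 transcripts run towards each other and their 3′ ends meet. Where the transcribed regions overlap, the ends of the messages are complementary to each other, and in fungi such pairs are a common source of natural antisense transcripts. In compact fungal genomes neighbouring genes lie close together, and convergent neighbours, unlike divergent ones, share no promoter region. Selenite is an oxidant that cells take up and can reduce to elemental selenium or build into organic molecules.

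Whole cultures of this strain were sequenced as messenger RNA, and the labels place all of them in one batch. The 5 groups were 5 selenite libraries and 6 control libraries at day 1, 4 selenite libraries and 5 control libraries at day 6, and 3 control libraries at day 0, the time of selenite addition. All cultures, controls included, had first grown still in the dark for 18 days in a yeast extract medium from blended mycelium of a 14-day preculture. Whether the libraries of a group stem from different flasks is not in the labels, and the p-values therefore reflect the scatter of these libraries only, which can be technical. The RNA came from whole cultures, so fewer cells of a kind and less RNA per cell cannot be told apart.

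Libraries held 23282564 to 32681888 reads in genes. Levels are given as scaled CPM, read counts relative to a common library total (CPM) divided by a composition factor (TMM) that makes libraries with different abundant transcripts comparable. The factors were 0.557 to 0.684 in selenite day 1 libraries, 0.775 to 0.909 in control day 1 libraries, 1.16 to 1.41 in selenite day 6 libraries, 1.33 to 1.61 in control day 6 libraries and 1.03 to 1.55 in control day 0 libraries. They therefore moved with the groups, and directions that depend on them are given with the alternatives. The ratio of 2 partners' reads within a library does not depend on any such factor, but the tested log2 ratio, of levels to which 0.5 was added after scaling, does for genes with few reads. Counting used strand, per the file headers, so reads of the partners were counted apart also inside the overlap. The authors' deposited time-course table pairs its genes with UniProt identifiers, which are not used here, and no gene names or functions are given. The study set selenite cultures against controls at each day, and the same comparisons are made below for the partners of each pair.

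The overlaps were short. They ran from 1 to 756 bases, with a median of 100 and quartiles of 43.5 and 194 bases, and together covered 79188 bases, of which 95.6% were exonic in both partners. A gene shared a median of 7.06% of its exon length with its partner. In 28 genes more than 50% of the exon length was shared, and in 721 it was under 10%. Exons of the partners shared bases in 583 of the 584 pairs. Of the member genes, 1165 were matched in RefSeq's table of this assembly, 1163 as protein-coding genes and 2 as tRNA genes.

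**Figure D1:**
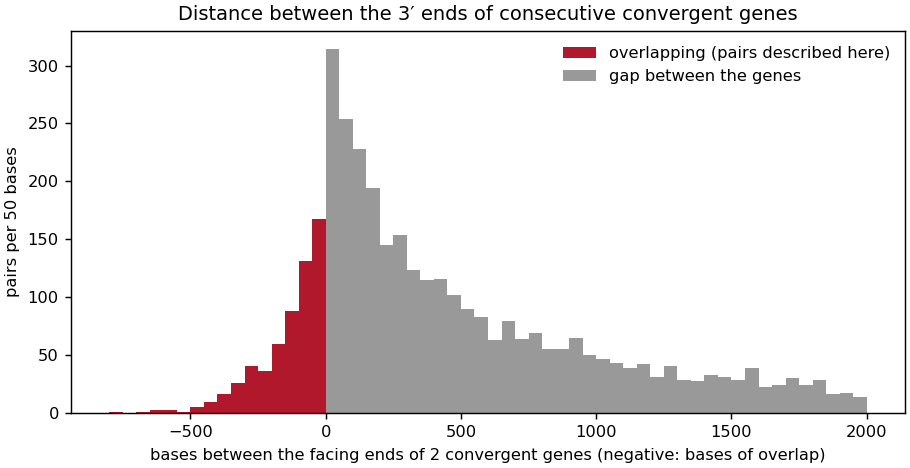
Distance between the facing ends of consecutive convergent genes, in bins of 50 bases, with negative values for overlap; the vertical axis is the number of pairs per bin, and 393 pairs beyond 2000 bases are not drawn. The 584 overlapping pairs lie left of 0: 167 pairs overlapped by 1 to 50 bases, against 314 pairs with a gap of 0 to 49 bases.

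Distances ran on from overlapping pairs to pairs with a short gap, with more pairs per bin on the side of the gap. Just inside the rule, 9 pairs overlapped by a single base, such as CC84DRAFT_1162585, which ended at base 2362155 of scaffold NW_017253362.1, the base at which CC84DRAFT_1162586 began. Just outside, 43 convergent pairs abutted with no base between them, such as CC84DRAFT_1168893, which ended at base 352017 of scaffold NW_017253372.1, and CC84DRAFT_1168895, which began at base 352018. Of 5 pairs with a 1-base overlap, the partners' log2 levels correlated over the 23 libraries with r = -0.09, -0.64, 0.44 and -0.24 in the 4 with levels above the filter. In 5 abutting pairs r was 0.48, 0.14, 0.45, -0.13 and 0.40.

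In 3 pairs the right gene lay wholly inside the left one, and these were picked out after their values were seen. CC84DRAFT_t9, a tRNA gene of 81 bases, lay within CC84DRAFT_64935 (scaffold NW_017253360.1, 2449832-2450272). CC84DRAFT_64935 had 59.01, 34.5, 57.6, 51.5 and 50.8 scaled CPM in selenite day 1 libraries, against a lowest of 0, a median of 1.04 and a highest of 3.19 in control day 1 libraries. CC84DRAFT_t9 had 0, 0.341, 0, 0.0497 and 0.655 scaled CPM in selenite day 1 libraries, against a lowest of 0.140, a median of 0.625 and a highest of 1.17 in control day 1 libraries. The groups of the enclosing gene did not overlap (log2 fold change 5.01, SE 0.47, limma adjusted p = 1.32e-09), and those of the tRNA gene did (log2 fold change -0.65, SE 0.29, limma adjusted p = 0.0525). The libraries were made from polyadenylated RNA. CC84DRAFT_1214662, with 3 exons and 180 exon bases, lay within CC84DRAFT_555987 (scaffold NW_017253362.1, 872171-875291). CC84DRAFT_1214662 had 26.4 ± 12.1 scaled CPM in selenite day 1 libraries (SD, n = 5) and 6.70 ± 2.27 in control day 1 libraries (n = 6), and CC84DRAFT_555987 had 24.8 ± 7.92 and 8.29 ± 2.99. Both partners rose at day 1 (log2 fold change 1.85, SE 0.28, limma adjusted p = 2.95e-06 for CC84DRAFT_1214662, and log2 fold change 1.55, SE 0.28, limma adjusted p = 2.99e-05 for CC84DRAFT_555987). The third, tRNA gene CC84DRAFT_t106 inside CC84DRAFT_1264415 (scaffold NW_017253374.1, 758403-764384), lay in an intron, and it is the pair that shared no exon base.

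The gene models and levels of the overlapping pairs were set beside those of other convergent genes, as values that carry no test. The share of genes whose exon length was a multiple of 3 was 40.3% in overlapping pairs, 57.2% in convergent pairs up to 500 bases apart and 60.0% in those farther apart, against 55.8% of all genes. A model that holds coding sequence alone has an exon length that is a multiple of 3. Median exon length was 1313 bases in overlapping pairs and 1300 bases over all genes. The filter on low reads kept 94.3% of the member genes and 90.2% of all genes. The median level per kilobase of exon was 10.3 scaled CPM per kb in the overlapping pairs, against 6.13 and 5.63 in the nearer and the farther convergent pairs and 6.74 over all genes.

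Of the 1168 genes, 1102 passed the filter and 18 had no read in any library. Both partners passed in 523 pairs, a single partner in 56 and neither in 5. Comparisons between partners were made in the 523 pairs and do not describe the others. Each library had reads for both partners in 436 to 531 of the 584 pairs. Both partners had a mean of at least 1 scaled CPM in 419 pairs, of at least 10 in 211 and of at least 100 in 7. Member genes took 9.71 ± 0.297% of the reads in selenite day 1 libraries (SD, n = 5), 9.05 ± 0.459% in control day 1 libraries (n = 6), 9.05 ± 0.25% in selenite day 6 libraries (n = 4), 7.89 ± 0.269% in control day 6 libraries (n = 5) and 10.5 ± 2.25% in control day 0 libraries (n = 3). A single member, CC84DRAFT_1226245, held 14038393 reads over all libraries, so these shares depend strongly on that gene.

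The partners were often present together at unlike levels. The median fold between their mean levels per kilobase was 3.66, against 3.97 over all consecutive pairs. The levels lay at least 2-fold apart in 372 of 523 pairs, at least 4-fold in 247, at least 16-fold in 90 and at least 64-fold in 34. The same partner was higher per kilobase in every one of the 23 libraries in 234 pairs, the plus-strand gene in 106 and the minus-strand gene in 128.

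In the pairs farthest apart, a partner near the detection limit lay against one of the abundant transcripts of the cultures. CC84DRAFT_790744 on the plus strand (scaffold NW_017253365.1, 243703-244287) and CC84DRAFT_790702 on the minus strand (244218-244859) overlapped by 70 bases and stood 1880-fold apart per kilobase. CC84DRAFT_790744 had 431, 558, 564, 538 and 426 scaled CPM in selenite day 1 libraries and a lowest of 1719, a median of 2075 and a highest of 2224 in control day 1 libraries. CC84DRAFT_790702 had 0, 0, 0, 2.39 and 0.119 in the same selenite libraries, with no read in 3 of 5, and a lowest of 0, a median of 0 and a highest of 0.0895 in the controls. CC84DRAFT_790744 fell at day 1 (log2 fold change -1.998, SE 0.28, limma adjusted p = 9.12e-07) and at day 6 (log2 fold change -2.91, SE 0.31, limma adjusted p = 3.36e-08), and its groups did not overlap on either day. Over all libraries CC84DRAFT_790702 had 131 reads, against 868670 for its partner, or 0.0151%. CC84DRAFT_733780 on the plus strand (scaffold NW_017253364.1, 1052769-1053891) and CC84DRAFT_1217064 on the minus strand (1053792-1055127) overlapped by 100 bases and stood 688-fold apart per kilobase. CC84DRAFT_1217064 averaged 3105 ± 297 scaled CPM in selenite day 1 libraries (SD, n = 5) and 1279 ± 386 in control day 1 libraries (n = 6). CC84DRAFT_733780 averaged 1.38 ± 1.29 in selenite day 1 libraries and 0.459 ± 0.370 in control day 1 libraries. CC84DRAFT_1217064 rose at both days (log2 fold change 1.33, SE 0.35, limma adjusted p = 0.00215 at day 1, and log2 fold change 2.58, SE 0.39, limma adjusted p = 6.95e-06 at day 6). Of CC84DRAFT_733780, the day 1 difference missed the threshold (log2 fold change 0.80, SE 0.36, limma adjusted p = 0.0573) and the day 6 one passed (log2 fold change 1.30, SE 0.40, limma adjusted p = 0.00913).

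CC84DRAFT_1163758 on the plus strand (scaffold NW_017253363.1, 2779013-2780079) and CC84DRAFT_703558 on the minus strand (2780010-2781344) overlapped by 70 bases and stood 1010-fold apart. CC84DRAFT_1163758 had 406, 368, 368, 376 and 281 scaled CPM in selenite day 1 libraries and a lowest of 207, a median of 613 and a highest of 1574 in control day 1 libraries, overlapping ranges in which one control stood far above the rest. CC84DRAFT_703558 had 0.447, 0.956, 2.11, 0 and 1.73 in selenite day 1 libraries, or 90 reads in all, and no read in any of the 6 control day 1 libraries. It passed the test at day 1 (log2 fold change 1.40, SE 0.29, limma adjusted p = 0.000182), a fitted value that depends on the constant of 0.5 added before the logarithm, while CC84DRAFT_1163758 did not (log2 fold change -0.55, SE 0.35, limma adjusted p = 0.183).

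In 9 pairs a partner averaged at least 1000 scaled CPM. In 5 of them the other partner had under 1% of the reads of the abundant gene. The shares ran from 0.0151% in CC84DRAFT_790744/CC84DRAFT_790702 to 5.16% in CC84DRAFT_1169657/CC84DRAFT_1131614. Of the 491 exon bases of CC84DRAFT_790744, 70 lay under its partner, so most of its reads could not have been counted there. A share of all its reads therefore does not show how well strands were told apart inside the overlap. The most abundant partner of all, picked out after its values were seen, was CC84DRAFT_1226245 (scaffold NW_017253360.1, 2996894-2999243), which overlapped CC84DRAFT_1159565 by 6 bases. CC84DRAFT_1226245 had 80479, 82961, 63605, 62277 and 74733 scaled CPM in selenite day 1 libraries and a lowest of 19077, a median of 25248 and a highest of 32073 in control day 1 libraries. CC84DRAFT_1159565 had 7.34, 7.24, 4.65, 8.71 and 8.94 in selenite day 1 libraries and a lowest of 15.2, a median of 18.9 and a highest of 26.5 in control day 1 libraries. The abundant partner was higher with selenite in every library and the quiet one lower in every library, without overlap of groups (log2 fold change 1.53, SE 0.62, limma adjusted p = 0.0338 for CC84DRAFT_1226245, and log2 fold change -1.38, SE 0.23, limma adjusted p = 9.17e-06 for CC84DRAFT_1159565).

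Among pairs with both partners abundant, CC84DRAFT_1208133 on the plus strand (scaffold NW_017253368.1, 322413-324490) and CC84DRAFT_1167145 on the minus strand (324443-325759) overlapped by 48 bases. CC84DRAFT_1167145 had 719.6, 639.5, 932, 877 and 659.8 scaled CPM in selenite day 1 libraries, against a lowest of 39.1, a median of 46.5 and a highest of 69.8 in control day 1 libraries. CC84DRAFT_1208133 had 146, 116, 99.3, 98.3 and 149 in selenite day 1 libraries, against a lowest of 222, a median of 311 and a highest of 353 in control day 1 libraries. Every selenite library stood above every control for the minus-strand gene and below every control for the plus-strand gene (log2 fold change 3.97, SE 0.25, limma adjusted p = 7.61e-13 for CC84DRAFT_1167145, and log2 fold change -1.33, SE 0.21, limma adjusted p = 4.16e-06 for CC84DRAFT_1208133). The same partners moved the same ways at day 6 (log2 fold change 1.77, SE 0.28, limma adjusted p = 9.37e-06 for CC84DRAFT_1167145, and log2 fold change -1.33, SE 0.23, limma adjusted p = 3.28e-05 for CC84DRAFT_1208133), where CC84DRAFT_1167145 had 385, 106, 196 and 197 scaled CPM in selenite libraries and 74.9, 49.7, 80.9, 46.9 and 47.2 in control libraries. In the other pair of this kind, CC84DRAFT_558160 on the plus strand (scaffold NW_017253362.1, 999832-1002613) and CC84DRAFT_558529 on the minus strand (1002526-1004602), with 88 shared bases, only the plus-strand gene passed at day 1 (log2 fold change 1.85, SE 0.31, limma adjusted p = 1.06e-05), with 316, 380.2, 364, 402 and 392 scaled CPM in selenite libraries and a lowest of 86.2, a median of 97.4 and a highest of 133 in control libraries. Its partner CC84DRAFT_558529 had 242, 357, 254, 294 and 232 in selenite libraries and a lowest of 158, a median of 210.2 and a highest of 261 in control libraries, overlapping ranges (log2 fold change 0.40, SE 0.24, limma adjusted p = 0.144).

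Levels of overlapping partners had a median correlation near 0 across the 23 libraries. The median Pearson correlation of their log2 levels was 0.05 (interquartile range -0.32 to 0.40) over 523 pairs, and 0.01 after group means were taken out. In convergent pairs it was 0.07 with a gap of up to 500 bases and 0.02 with a longer gap, against 0.33 in divergent pairs with a gap of up to 500 bases, 0.22 in tandem pairs with such a gap and 0.17 in all consecutive pairs. The correlation was over 0.5 in 96 overlapping pairs (18.4%) and under -0.5 in 67 (12.8%), against 24.6% and 8.57% of all pairs. In convergent pairs with a gap of up to 500 bases these shares were 17.9% and 10.5%, and with a longer gap 14.4% and 12.2%. All pairs share the same 23 libraries and are not independent of each other, so these values describe the data and carry no test. By size of the overlap, the median was 0.06 in 274 pairs sharing 1 to 100 bases, 0.03 in 243 sharing more, up to 500, and -0.1 in 6 sharing over 500.

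**Figure D2:**
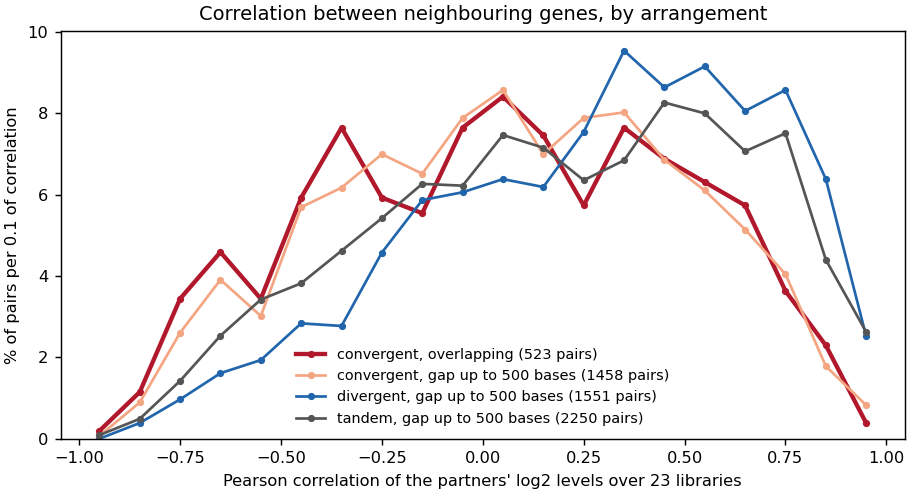
Share of gene pairs per 0.1 of correlation, where the correlation is Pearson's r of the partners' log2 levels over 23 libraries, for overlapping convergent pairs and 3 kinds of pairs with a gap of up to 500 bases. The curves of overlapping and gapped convergent pairs lie on each other around 0 (medians 0.05 and 0.07), and that of divergent pairs is shifted to the right (median 0.33).

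At the ends of that range stood pairs whose partners moved almost as one or almost as mirror images. CC84DRAFT_1198791 on the plus strand (scaffold NW_017253369.1, 843995-844925) and CC84DRAFT_1127479 on the minus strand (844877-845853) shared 49 bases and had r = 0.94, 0.75 within groups. CC84DRAFT_1198791 had 47.97, 45.2, 56.9, 71.9 and 47.4 scaled CPM in selenite day 1 libraries and a lowest of 73.1, a median of 89.5 and a highest of 106 in control day 1 libraries. CC84DRAFT_1127479 had 37.9, 38.8, 45.7, 53.2 and 30.3 in selenite day 1 libraries and a lowest of 78.3, a median of 89.8 and a highest of 98.4 in control day 1 libraries. Both fell without overlap of groups at day 1 (log2 fold change -0.73, SE 0.16, limma adjusted p = 0.000268 for CC84DRAFT_1198791, and log2 fold change -1.14, SE 0.15, limma adjusted p = 2.28e-07 for CC84DRAFT_1127479). CC84DRAFT_1169604 on the plus strand (scaffold NW_017253374.1, 846295-848059) and CC84DRAFT_407517 on the minus strand (847993-849202) shared 67 bases and had r = -0.96, -0.65 within groups. CC84DRAFT_407517 had 24.6, 27.6, 17.96, 27.8 and 21.6 scaled CPM in selenite day 1 libraries, while the 6 control day 1 libraries held 2 reads of it in all. CC84DRAFT_1169604 had 18.1, 16.9, 22.5, 14.6 and 17.9 in selenite day 1 libraries and a lowest of 57.8, a median of 72.9 and a highest of 84.1 in control day 1 libraries. At day 6 CC84DRAFT_407517 had 4.70, 2.36, 5.24 and 3.21 in selenite libraries and 0, 0.249, 0.107, 0 and 0.224 in control libraries, and CC84DRAFT_1169604 had 31.1, 35.2, 27.2 and 33.8 and 129, 72.9, 101.2, 79.4 and 84.8. No group of selenite libraries overlapped its controls for either gene. CC84DRAFT_1169604 fell on both days (log2 fold change -1.96, SE 0.16, limma adjusted p = 9.01e-11 at day 1, and log2 fold change -1.52, SE 0.18, limma adjusted p = 1.38e-07 at day 6) and CC84DRAFT_407517 rose on both (log2 fold change 5.55, SE 0.27, limma adjusted p = 8.3e-15 at day 1, and log2 fold change 2.80, SE 0.30, limma adjusted p = 4.09e-08 at day 6). The fitted fold of CC84DRAFT_407517 depends on the added constant.

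One day of selenite changed most of the member genes, as it did most genes. Of 1102 tested, 722 passed the limma test (adjusted p under 0.05), 306 higher and 416 lower, or 65.5%, against 62.5% of all genes tested. Genes called lower were 37.7% of the members and 31.7% of all genes, and genes called higher were 27.8% and 30.8%. This split depends on the scaling: it was 215 higher and 513 lower by library size alone, which shifted the median of all genes by -0.28 on the log2 scale, and 348 higher and 365 lower with DESeq2's size factors, which shifted it by 0.14. Of the called genes, 227 were at least 2-fold higher and 303 at least 2-fold lower, which describes the members alone since all genes were not counted at this fold. The median log2 fold change was -0.22 over the members and -0.02 over all genes. Selenite and control libraries did not overlap in 474 members (43.01%), against 42.1% of all genes.

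Partners moved together in 122 pairs, 44 with both higher (8.41% of the 523, against 12.6% of all consecutive pairs) and 78 with both lower (14.9%, against 12.6%). They moved apart in 19.3%, against 16.0% of all pairs: the plus-strand partner was the higher one in 61 and the minus-strand partner in 40. A single partner was called in 243 of the 523 pairs and none in 57, against 5522 and 1880 of all 12572 tested consecutive pairs. Of the pairs with both partners called, 45.3% were opposite, against 41.3% in convergent pairs with a gap of up to 500 bases, 47.4% with a longer gap, 31.3% in divergent pairs and 38.8% in all. The ratio of the partners changed in 336 pairs (64.2%, limma adjusted p under 0.05), against 61.9% of all pairs. It changed in 63.1% of convergent pairs with a gap of up to 500 bases and in 63.4% of those with a longer gap.

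**Figure D3:**
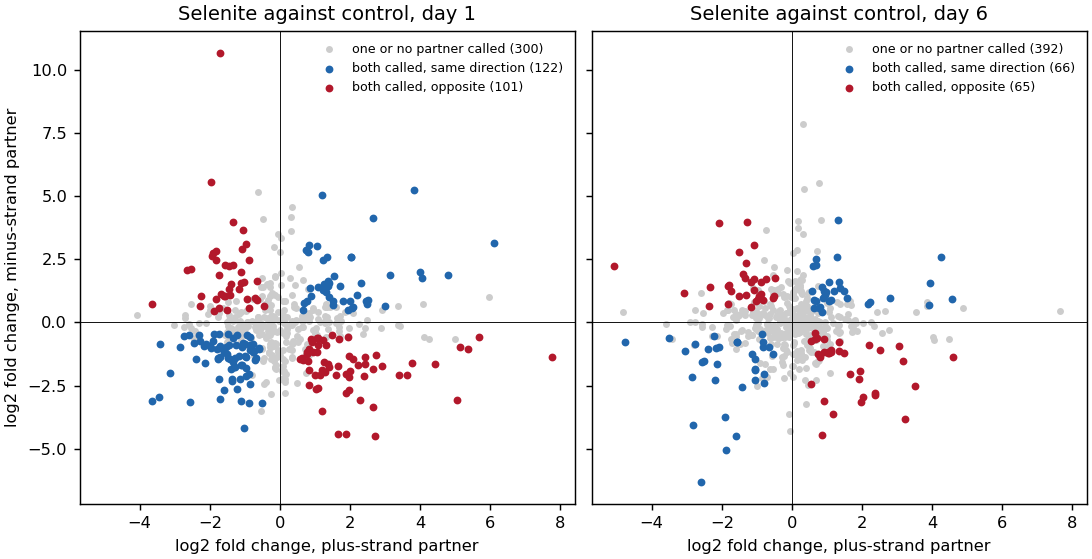
Log2 fold change with selenite of the plus-strand partner (horizontal) against that of the minus-strand partner (vertical) in 523 overlapping pairs, at day 1 and day 6, coloured by whether both partners passed the test. Points spread to both sides of both axes: 122 pairs moved in the same direction at day 1 and 66 at day 6, where 65 were opposite.

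In 40 pairs (7.65%, against 5.52% of all pairs) the partner with the higher level per kilobase was a different one in every selenite library than in every control library, and the ratio test called all 40. Of convergent pairs with a gap of up to 500 bases 6.79% changed in this way, and of those with a longer gap 6.38%. The widest such change among the 40 was that of CC84DRAFT_1165436 on the plus strand (scaffold NW_017253365.1, 2142027-2143246) and CC84DRAFT_827500 on the minus strand (2143106-2144554), which share 141 bases. CC84DRAFT_827500 had 12443, 14868, 14294, 15338 and 11146 scaled CPM in selenite day 1 libraries, against a lowest of 4.097, a median of 7.77 and a highest of 11.2 in control day 1 libraries. CC84DRAFT_1165436 had 8.61, 9.97, 11.3, 9.10 and 3.75 in selenite day 1 libraries, against a lowest of 23.6, a median of 26.9 and a highest of 33.1 in control day 1 libraries. The groups of neither gene overlapped: CC84DRAFT_827500 rose (log2 fold change 10.69, SE 0.26, limma adjusted p = 1.28e-20) and CC84DRAFT_1165436 fell (log2 fold change -1.70, SE 0.24, limma adjusted p = 1.12e-06). Per kilobase, CC84DRAFT_827500 averaged 10095 scaled CPM in selenite and 5.98 in control libraries, and CC84DRAFT_1165436 6.999 and 22.4. The log2 ratio of the plus-strand to the minus-strand gene changed by -12.38 (SE 0.38, limma adjusted p = 1.41e-19).

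CC84DRAFT_1169657 on the plus strand (scaffold NW_017253375.1, 139105-140542) and CC84DRAFT_1131614 on the minus strand (140538-144178) shared 5 bases. CC84DRAFT_1169657 had 7001, 8366, 7948, 7852 and 6568 scaled CPM in selenite day 1 libraries, against a lowest of 22.4, a median of 36.3 and a highest of 49.6 in control day 1 libraries. CC84DRAFT_1131614 had 23.7, 33.05, 28.5, 37.4 and 47.01 in selenite day 1 libraries, against a lowest of 50.9, a median of 98.04 and a highest of 107 in control day 1 libraries. Again neither gene's groups overlapped (log2 fold change 7.77, SE 0.30, limma adjusted p = 9.77e-17 for CC84DRAFT_1169657, and log2 fold change -1.38, SE 0.23, limma adjusted p = 1.47e-05 for CC84DRAFT_1131614). CC84DRAFT_1159737 on the plus strand (scaffold NW_017253360.1, 3502272-3504499) and CC84DRAFT_1159738 on the minus strand (3504473-3505241) shared 27 bases. CC84DRAFT_1159737 had 129, 154, 164, 134 and 153 scaled CPM in selenite day 1 libraries, against a lowest of 1.96, a median of 4.16 and a highest of 8.08 in control day 1 libraries. CC84DRAFT_1159738 had 1.21, 0.410, 1.90, 0 and 1.79 in selenite day 1 libraries, against a lowest of 5.48, a median of 10.3 and a highest of 21.03 in control day 1 libraries. Every selenite library lay above the controls for CC84DRAFT_1159737 and below them for CC84DRAFT_1159738 (log2 fold change 5.07, SE 0.27, limma adjusted p = 3.5e-14 for CC84DRAFT_1159737, and log2 fold change -3.08, SE 0.41, limma adjusted p = 4.7e-07 for CC84DRAFT_1159738). Over all 23 libraries this pair had r = -0.85, the next to lowest of the 523.

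**Figure D4:**
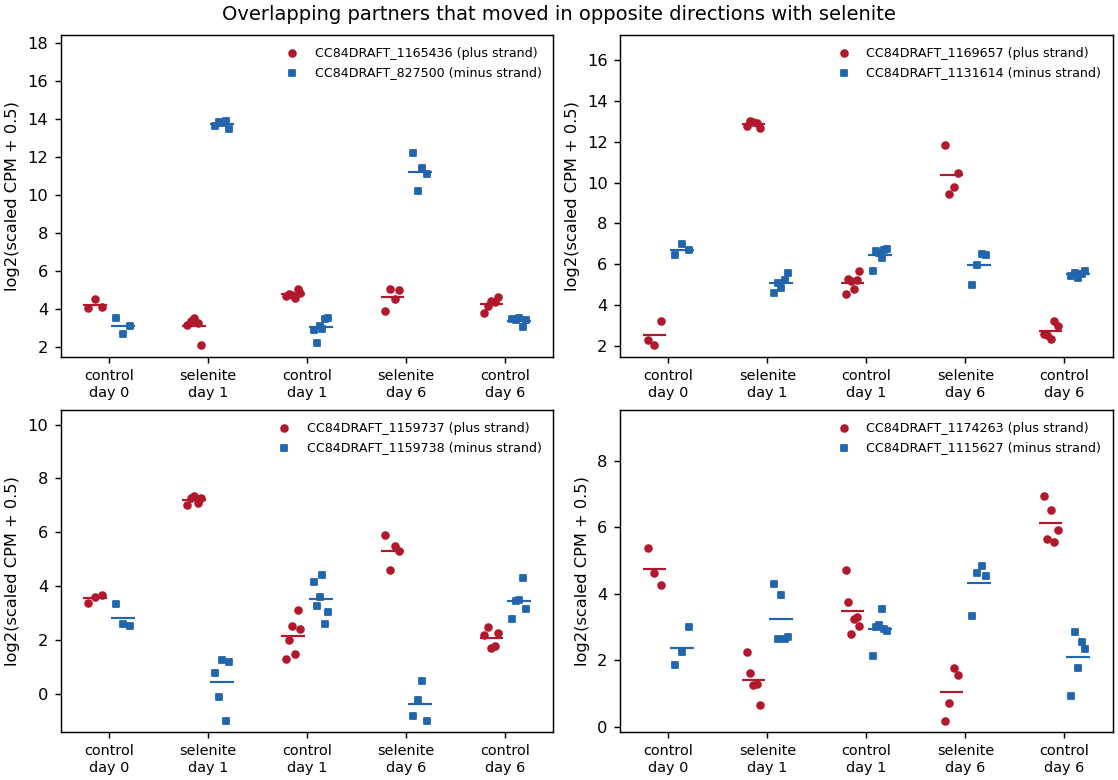
Log2(scaled CPM + 0.5) of both partners in each library, with lines at the group means, for 4 pairs whose partners moved in opposite directions with selenite at day 1 or day 6. In the pair CC84DRAFT_1165436/CC84DRAFT_827500 the minus-strand gene stands between 11146 and 15338 scaled CPM in selenite day 1 libraries and the plus-strand gene at no more than 11.3.

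Of the 122 pairs that moved together at day 1, the ratio of the partners also passed the test in 53. CC84DRAFT_160474 on the plus strand (scaffold NW_017253360.1, 4434072-4434920) and CC84DRAFT_1160059 on the minus strand (4434887-4436526) shared 34 bases. CC84DRAFT_1160059 had 42.998, 55.9, 57.2, 41.5 and 41.8 scaled CPM in selenite day 1 libraries, against a lowest of 0.542, a median of 0.670 and a highest of 1.68 in control day 1 libraries. CC84DRAFT_160474 had 9.95, 6.49, 8.14, 5.27 and 8.04 in selenite day 1 libraries, while 4 of the 6 control day 1 libraries held no read of it. Both rose without overlap of groups (log2 fold change 5.23, SE 0.30, limma adjusted p = 1.82e-13 for CC84DRAFT_1160059, and log2 fold change 3.82, SE 0.27, limma adjusted p = 6.05e-12 for CC84DRAFT_160474). The fitted fold of CC84DRAFT_160474 depends on the added constant and ran from 2.19 to 6.79 on the log2 scale over the alternatives, against 4.14 to 6.03 for CC84DRAFT_1160059, so no order of the folds is given. CC84DRAFT_1163467 on the plus strand (scaffold NW_017253363.1, 1883155-1884700) and CC84DRAFT_1163468 on the minus strand (1884621-1886530) shared 80 bases. CC84DRAFT_1163467 had 422, 496, 407, 355 and 359.9 scaled CPM in selenite day 1 libraries, against a lowest of 3.46, a median of 5.57 and a highest of 7.93 in control day 1 libraries. CC84DRAFT_1163468 had 167, 187, 143, 154 and 189.6 in selenite day 1 libraries, against a lowest of 15.1, a median of 17.8 and a highest of 22.8 in control day 1 libraries. Both groups stood apart from their controls (log2 fold change 6.13, SE 0.41, limma adjusted p = 2.71e-12 for CC84DRAFT_1163467, and log2 fold change 3.16, SE 0.24, limma adjusted p = 3.55e-11 for CC84DRAFT_1163468), and the log2 ratio still changed by 2.97 (SE 0.44, limma adjusted p = 1.76e-06), since CC84DRAFT_1163467 rose more.

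Among the pairs that fell, CC84DRAFT_1111777 on the plus strand (scaffold NW_017253361.1, 2047012-2048533) and CC84DRAFT_1138041 on the minus strand (2048484-2049922) shared 50 bases. CC84DRAFT_1111777 had 9.06, 3.82, 11.4, 14.9 and 5.005 scaled CPM in selenite day 1 libraries, against a lowest of 75.8, a median of 113 and a highest of 141 in control day 1 libraries. CC84DRAFT_1138041 had 35.7, 26.1, 29.1, 22.1 and 17.04 in selenite day 1 libraries, against a lowest of 171, a median of 219 and a highest of 269 in control day 1 libraries. Both fell clear of their controls (log2 fold change -3.65, SE 0.47, limma adjusted p = 2.78e-07 for CC84DRAFT_1111777, and log2 fold change -3.10, SE 0.32, limma adjusted p = 5.27e-09 for CC84DRAFT_1138041), and their ratio did not pass the test, with a change of -0.55 (SE 0.30, limma adjusted p = 0.114). CC84DRAFT_1151148 on the plus strand (scaffold NW_017253367.1, 1136197-1137204) and CC84DRAFT_1166727 on the minus strand (1137156-1138619) shared 49 bases. CC84DRAFT_1151148 had 2.30, 0.546, 0.211, 1.99 and 0.715 scaled CPM in selenite day 1 libraries, against a lowest of 2.46, a median of 19.4 and a highest of 97.4 in control day 1 libraries. CC84DRAFT_1166727 had 23.99, 20.1, 21.6, 25.8 and 12.7 in selenite day 1 libraries, against a lowest of 131, a median of 168 and a highest of 187 in control day 1 libraries. The control libraries of CC84DRAFT_1151148 spread widely, and its highest selenite library lay just under its lowest control (log2 fold change -3.45, SE 0.64, limma adjusted p = 4e-05), while CC84DRAFT_1166727 was far below (log2 fold change -2.96, SE 0.22, limma adjusted p = 1.64e-11).

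**Figure D5:**
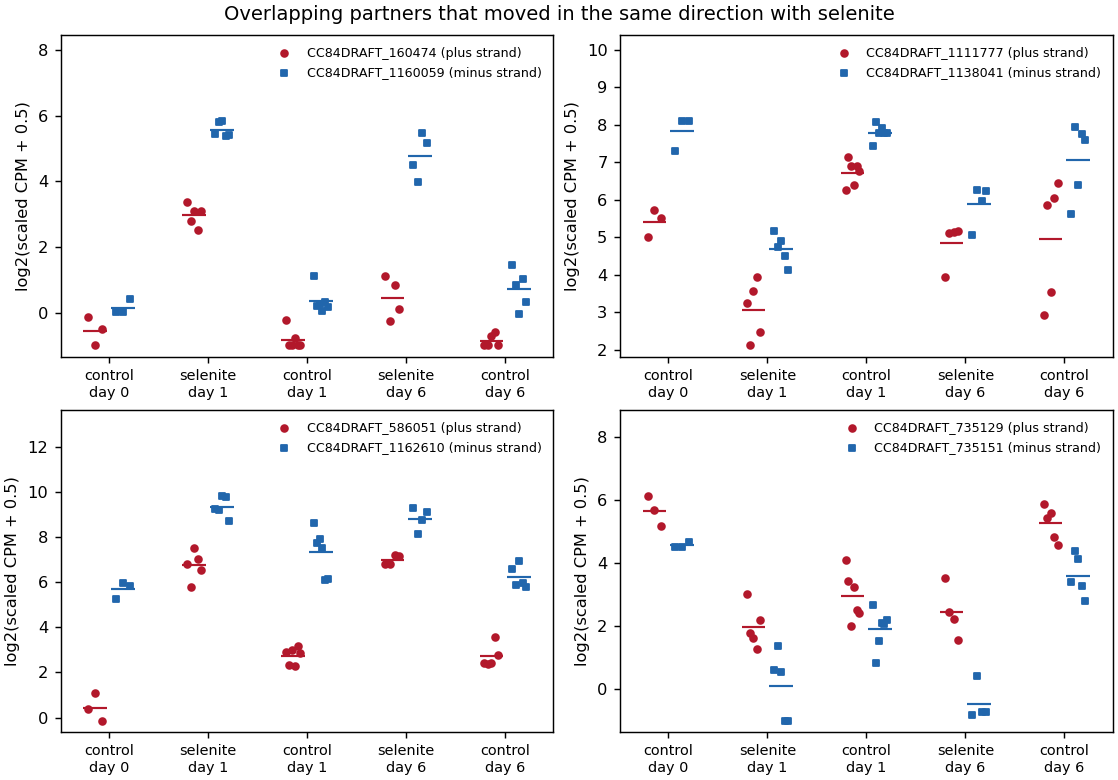
Log2(scaled CPM + 0.5) of both partners in each library, with lines at the group means, for 4 pairs whose partners both rose or both fell with selenite at day 1 or day 6. In the pair CC84DRAFT_160474/CC84DRAFT_1160059 both genes stand above every control library of the same day, and in CC84DRAFT_735129/CC84DRAFT_735151 both stand below the day 6 controls.

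After 6 days of selenite fewer member genes passed the test against the controls of the same day, in groups of fewer libraries than at day 1. Of 1102 tested, 535 passed, or 48.5%, against 48.6% of all genes. Of the members 261 were higher, beside 3698 of all 13676 genes tested, and 274 (24.9%) were lower, against 21.5% of all genes. By library size alone the split was 225 higher and 330 lower. Groups did not overlap in 427 members (38.75%), against 38.3% of all genes. Both partners were higher in 33 pairs (6.31%, against 10.1% of all pairs), both lower in 33 (6.31%, against 6.34%) and opposite in 65 (12.4%, against 8.96%). Of 1458 convergent pairs with a gap of up to 500 bases, 121 were both higher, 77 both lower and 161 opposite. Of 1300 with a longer gap, these were 97, 58 and 135. Opposite pairs were 49.6% of the overlapping pairs with both partners called, against 44.8% in convergent pairs with a gap of up to 500 bases, 46.6% with a longer gap, 25.3% in divergent pairs and 35.4% in all. Control day 6 replicates 1 and 3 had composition factors of 1.61 each, above the 1.33 to 1.41 of the other day 6 controls, and without them together, an alternative chosen after seeing the data, the count of opposite pairs was 37. The ratio of the partners changed in 287 pairs (54.9%, against 48.2%), and in 39 (7.46%, against 5.02%) the higher partner per kilobase was a different one in every selenite library than in every control library. In convergent pairs with a gap of up to 500 bases these shares were 51.9% and 6.04%, and with a longer gap 51.0% and 6.23%.

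The opposite pair with the widest change at day 6 was CC84DRAFT_1174263 on the plus strand (scaffold NW_017253362.1, 2713547-2716729) and CC84DRAFT_1115627 on the minus strand (2716641-2718027), which share 89 bases. CC84DRAFT_1174263 had 0.639, 1.16, 2.91 and 2.42 scaled CPM in selenite day 6 libraries, against 124, 50.3, 91.4, 47.2 and 59.9 in control day 6 libraries. CC84DRAFT_1115627 had 9.58, 24.4, 28.1 and 22.9 in selenite day 6 libraries, against 1.39, 6.67, 2.93, 5.38 and 4.61 in control day 6 libraries. CC84DRAFT_1174263 fell (log2 fold change -5.07, SE 0.40, limma adjusted p = 2.09e-10) and CC84DRAFT_1115627 rose (log2 fold change 2.25, SE 0.42, limma adjusted p = 0.000102), both without overlap of groups, and the higher partner per kilobase changed over. CC84DRAFT_1159737/CC84DRAFT_1159738 was opposite again at day 6, with CC84DRAFT_1159737 at 58.5, 23.7, 44.1 and 38.9 scaled CPM in selenite libraries and 4.02, 5.08, 2.72, 2.94 and 4.25 in control libraries. CC84DRAFT_1159738 had 0.0639, 0.356, 0.882 and 0 in selenite day 6 libraries and 6.40, 10.4, 10.8, 19.05 and 8.39 in control day 6 libraries. The directions were those of day 1 (log2 fold change 3.24, SE 0.30, limma adjusted p = 2.84e-09 for CC84DRAFT_1159737, and log2 fold change -3.83, SE 0.46, limma adjusted p = 2.07e-07 for CC84DRAFT_1159738).

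CC84DRAFT_1103203 on the plus strand (scaffold NW_017253372.1, 881249-882793) and CC84DRAFT_363551 on the minus strand (882772-884642) shared 22 bases and parted at day 6. CC84DRAFT_1103203 had 194, 621, 876 and 961 scaled CPM in selenite day 6 libraries, against 29.4, 50.96, 27.4, 71.7 and 95.01 in control day 6 libraries. CC84DRAFT_363551 had 2.27, 2.29, 1.56 and 2.84 in selenite day 6 libraries, against 16.4, 18.8, 17.1, 16.2 and 9.24 in control day 6 libraries. Neither gene's groups overlapped at day 6 (log2 fold change 3.51, SE 0.44, limma adjusted p = 4.12e-07 for CC84DRAFT_1103203, and log2 fold change -2.53, SE 0.33, limma adjusted p = 6.53e-07 for CC84DRAFT_363551). At day 1 neither passed the test (log2 fold change 0.01, SE 0.40, limma adjusted p = 0.987 for CC84DRAFT_1103203, and log2 fold change -0.31, SE 0.30, limma adjusted p = 0.37 for CC84DRAFT_363551).

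Of the pairs that rose together at day 6, CC84DRAFT_586051 on the plus strand (scaffold NW_017253362.1, 2447859-2448862) and CC84DRAFT_1162610 on the minus strand (2448763-2449304) shared 100 bases. CC84DRAFT_586051 had 110.4, 111, 148 and 141 scaled CPM in selenite day 6 libraries, against 4.91, 4.75, 4.80, 11.5 and 6.31 in control day 6 libraries. CC84DRAFT_1162610 had 620.2, 285, 426 and 548 in selenite day 6 libraries, against 95.98, 57.8, 121, 61.2 and 55.002 in control day 6 libraries. Both stood clear of the controls (log2 fold change 4.27, SE 0.31, limma adjusted p = 4.08e-11 for CC84DRAFT_586051, and log2 fold change 2.59, SE 0.40, limma adjusted p = 6.81e-06 for CC84DRAFT_1162610). In CC84DRAFT_205672 on the plus strand (scaffold NW_017253369.1, 881754-883813) and CC84DRAFT_1167817 on the minus strand (883501-885908), which share 313 bases, CC84DRAFT_205672 had 8.88, 12.98, 15.5 and 11.7 scaled CPM in selenite day 6 libraries, against 2.53, 5.77, 5.28, 4.82 and 4.27 in control day 6 libraries. CC84DRAFT_1167817 had 33.5, 33.8, 32.3 and 26.3 in selenite day 6 libraries, against 12.6, 8.09, 11.4, 12.3 and 15.7 in control day 6 libraries. The changes were alike (log2 fold change 1.36, SE 0.33, limma adjusted p = 0.00121 for CC84DRAFT_205672, and log2 fold change 1.38, SE 0.21, limma adjusted p = 8.91e-06 for CC84DRAFT_1167817), and the log2 ratio moved by -0.01 (SE 0.36, limma adjusted p = 0.976).

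Of those that fell together, CC84DRAFT_735129 on the plus strand (scaffold NW_017253364.1, 1123673-1126193) and CC84DRAFT_735151 on the minus strand (1125975-1126768) shared 219 bases, 161 of them exonic in both. CC84DRAFT_735129 had 10.9, 4.98, 4.18 and 2.45 scaled CPM in selenite day 6 libraries, against 57.5, 42.5, 47.5, 27.999 and 23.2 in control day 6 libraries. CC84DRAFT_735151 had 0.0639, 0.845, 0.104 and 0.105 in selenite day 6 libraries, against 10.1, 20.5, 16.9, 9.04 and 6.40 in control day 6 libraries. No selenite library reached a control (log2 fold change -2.82, SE 0.42, limma adjusted p = 5.15e-06 for CC84DRAFT_735129, and log2 fold change -4.05, SE 0.47, limma adjusted p = 1.02e-07 for CC84DRAFT_735151). CC84DRAFT_1151751 on the plus strand (scaffold NW_017253367.1, 2009663-2011830) and CC84DRAFT_1220165 on the minus strand (2011779-2012198) shared 52 bases. CC84DRAFT_1220165 had 0.958, 1.0002, 0.623 and 0.526 scaled CPM in selenite day 6 libraries, against 173, 111, 138, 72.96 and 53.3 in control day 6 libraries. CC84DRAFT_1151751 had 1.79, 1.24, 1.25 and 0.579 in selenite day 6 libraries, against 14.6, 11.2, 9.81, 6.46 and 7.43 in control day 6 libraries. Both fell clear of the controls (log2 fold change -6.33, SE 0.66, limma adjusted p = 2.29e-08 for CC84DRAFT_1220165, and log2 fold change -2.60, SE 0.52, limma adjusted p = 0.000206 for CC84DRAFT_1151751), by unlike amounts, so that the log2 ratio of CC84DRAFT_1151751 to CC84DRAFT_1220165 changed by 3.73 (SE 0.87, limma adjusted p = 0.000851).

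The response of many pairs differed between the days. The difference of the selenite effect, day 6 minus day 1, passed the test in 469 members (42.6%, against 43.4% of all genes), 262 of them positive (23.8%, against 22.7%) and 207 negative (18.8%, against 20.7%). By library size alone the split was 315 and 152, and with DESeq2's size factors it was 213 and 255, so which direction prevailed depends on the scaling. The ratio of the partners responded differently on the 2 days in 233 pairs (44.6%, against 41.9%). Partners were opposite on both days in 28 pairs (5.35%, against 2.90% of all consecutive pairs), with the same partner higher in 24 (4.59%, against 2.79%) and the other in 4 (0.765%, against 0.111%). They moved together on both days in 28 (5.35%, against 6.94%), in the same direction in 26 (4.97%, against 6.58%). In 9 pairs the partners were opposite at day 1 and moved together at day 6 (1.72%, against 1.91%), and in 5 the order was reversed (0.956%, against 1.49%). The ratio changed on both days in 193 pairs (36.9%, against 32.9%), in the same direction in 163 (31.2%, against 27.7%) and in opposite ones in 30 (5.74%, against 5.11%). A different partner was higher with selenite on both days in 8 pairs (1.53%, against 0.939%).

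The ratio of CC84DRAFT_1167970 on the plus strand (scaffold NW_017253369.1, 1331550-1332219) and CC84DRAFT_1190033 on the minus strand (1332213-1333577), which share 7 bases, changed the most between the days. CC84DRAFT_1167970 had 0, 0.273, 1.80, 4.08 and 0.238 scaled CPM in selenite day 1 libraries, against a lowest of 13.7, a median of 19.97 and a highest of 35.6 in control day 1 libraries, and 1.21, 4.40, 1.87 and 0.632 in selenite day 6 libraries, against 0.943, 2.19, 1.28, 1.72 and 0.761 in control day 6 libraries. It fell at day 1 (log2 fold change -4.08, SE 0.49, limma adjusted p = 8e-08), while at day 6 the groups overlapped (log2 fold change 0.27, SE 0.54, limma adjusted p = 0.711). CC84DRAFT_1190033 had 18.2, 18.8, 12.9 and 10.9 in selenite day 6 libraries, against 52.3, 39.04, 47.997, 23.01 and 30.5 in control day 6 libraries (log2 fold change -1.29, SE 0.51, limma adjusted p = 0.0373). The difference in the log2 ratio's change was 5.94 (SE 1.06, limma adjusted p = 7.66e-05). CC84DRAFT_1207156 on the plus strand (scaffold NW_017253366.1, 1420729-1421801) and CC84DRAFT_1166068 on the minus strand (1421728-1423501) shared 74 bases. CC84DRAFT_1166068 had 9.57, 10.7, 5.07, 6.67 and 7.80 scaled CPM in selenite day 1 libraries, against a lowest of 140.4, a median of 161 and a highest of 277 in control day 1 libraries. At day 6 it had 2.72, 2.0005, 4.96 and 3.71 in selenite libraries, against 0.199, 2.46, 1.39, 11.7 and 10.4 in control libraries, overlapping ranges. It fell at day 1 (log2 fold change -4.41, SE 0.52, limma adjusted p = 5.46e-08), when its level in the controls was far above that of day 0, where it had 1.75, 10.99 and 4.82. CC84DRAFT_1207156 had 3.06, 2.46, 4.44, 1.79 and 2.38 scaled CPM in selenite day 1 libraries, against a lowest of 0, a median of 0.469 and a highest of 2.17 in control day 1 libraries, and rose with ranges that still overlapped (log2 fold change 1.65, SE 0.39, limma adjusted p = 0.000581). The ratio's change differed between the days by -5.85 (SE 0.90, limma adjusted p = 1.23e-05).

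In CC84DRAFT_1165436/CC84DRAFT_827500, CC84DRAFT_827500 was still high at day 6, with 4672, 1184, 2759 and 2158 scaled CPM in selenite libraries, against 10.6, 10.1, 10.9, 7.71 and 10.2 in control libraries (log2 fold change 7.86, SE 0.28, limma adjusted p = 1.22e-16). CC84DRAFT_1165436 no longer differed past the threshold (log2 fold change 0.32, SE 0.27, limma adjusted p = 0.333), with 14.3, 32.2, 22.6 and 31.6 in selenite libraries and 13.6, 17.7, 21.1, 20.4 and 24.5 in control libraries. The difference between the days itself passed for both (log2 fold change -2.83, SE 0.38, limma adjusted p = 2.62e-06 for CC84DRAFT_827500, and log2 fold change 2.02, SE 0.36, limma adjusted p = 7.83e-05 for CC84DRAFT_1165436). In CC84DRAFT_1169657/CC84DRAFT_1131614 the same held for the quiet partner: CC84DRAFT_1131614 had 30.7, 62.1, 90.5 and 87.4 in selenite day 6 libraries and 42.6, 46.7, 40.2, 45.4 and 50.4 in control day 6 libraries (log2 fold change 0.47, SE 0.26, limma adjusted p = 0.141), with log2 fold change 1.84, SE 0.35, limma adjusted p = 0.000156 for the difference between days.

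Between controls of different ages fewer member genes passed the test. Both age comparisons use the same 3 day 0 controls, so their errors are shared, and with so few libraries a lower count need not mean smaller changes. Of 1102 tested, 313 members differed between control day 1 and control day 0 (28.4%, against 27.8% of all genes). Of these 132 were higher, against 15.0% of all genes, and 181 lower (16.4%, against 12.8%). Between control day 6 and control day 0, 263 differed (23.9%, against 21.1%), 103 of them higher (9.35%, against 9.73%) and 160 lower (14.5%, against 11.4%). By library size alone the splits were 66 and 428 at day 1 and 163 and 79 at day 6, so the direction of the day 6 majority depends on the scaling, and the count at day 1 became 494. Groups did not overlap in 299 members at day 1 (27.13%, against 26.8%) and in 319 at day 6 (28.95%, against 25.2%). At day 1 both partners were higher in 9 pairs (1.72%, against 3.25% of all pairs), both lower in 20 (3.82%, against 2.55%) and opposite in 16 (3.06%, against 2.75%). At day 6 these were 7 (1.34%, against 1.65%), 16 (3.06%, against 2.65%) and 10 (1.91%, against 1.27%). Pairs moving together numbered 88 at day 1 by library size alone, and 15 at day 6 when only the compared groups were fitted. Opposite pairs at day 6 numbered 19 when the replicate number was fitted as a block.

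The ratio of the partners changed with age in 140 pairs at day 1 (26.8%, against 26.4%) and in 99 at day 6 (18.9%, against 15.1%). The higher partner per kilobase differed in all libraries in 14 pairs (2.68%, against 2.20%) at day 1 and in 10 (1.91%, against 1.24%) at day 6. At day 6 the ratio changed in 16.6% of convergent pairs with a gap of up to 500 bases and in 16.2% with a longer gap. The higher partner differed in 1.78% and 0.923% of these. Leaving out a library moved several counts of the age comparisons by over 1.5 times. Without control day 0 replicate 2 the day 6 comparison called 115 members, 28 ratios, 2 opposite pairs and 3 pairs moving together, and without control day 0 replicate 3 it called 106, 31, 2 and 4. Without control day 6 replicate 3 it called 64 ratios and 11 pairs moving together, and without control day 6 replicate 1 it called 12 such pairs. Without control day 0 replicate 1, the higher partner per kilobase differed in 17 pairs at day 6. Without control day 6 replicates 1 and 3 together, an alternative chosen after seeing the data, the day 6 comparison called 142 members, 49 ratios, 5 opposite pairs and 5 pairs moving together. In the day 1 comparison, leaving out control day 0 replicate 2 gave 10 opposite pairs, and leaving out control day 0 replicate 1, 2 or 3 gave 16, 17 or 19 pairs moving together.

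CC84DRAFT_162131 on the plus strand (scaffold NW_017253360.1, 4571011-4573261) and CC84DRAFT_1160113 on the minus strand (4573243-4574899) shared 19 bases and rose together with age. CC84DRAFT_162131 had a lowest of 98.4, a median of 145 and a highest of 207 scaled CPM in control day 1 libraries, against 36.8, 21.2 and 18.1 in control day 0 libraries. CC84DRAFT_1160113 had a lowest of 31.1, a median of 72.6 and a highest of 95.5 in control day 1 libraries, against 6.30, 5.54 and 6.40 in control day 0 libraries. Both stood clear of day 0 (log2 fold change 2.52, SE 0.28, limma adjusted p = 3.33e-07 for CC84DRAFT_162131, and log2 fold change 3.26, SE 0.31, limma adjusted p = 3.14e-08 for CC84DRAFT_1160113). CC84DRAFT_735129/CC84DRAFT_735151 fell together, CC84DRAFT_735129 with a lowest of 3.50, a median of 7.02 and a highest of 16.5 scaled CPM in control day 1 libraries, against 69.7, 51.2 and 35.5 in control day 0 libraries. CC84DRAFT_735151 had a lowest of 1.26, a median of 3.75 and a highest of 5.88 in control day 1 libraries, against 22.5, 22.1 and 24.9 in control day 0 libraries. No day 1 library reached day 0 (log2 fold change -2.72, SE 0.44, limma adjusted p = 5.71e-05 for CC84DRAFT_735129, and log2 fold change -2.67, SE 0.49, limma adjusted p = 0.000209 for CC84DRAFT_735151). In CC84DRAFT_202399 on the plus strand (scaffold NW_017253369.1, 782816-784226) and CC84DRAFT_1179654 on the minus strand (784209-786784), which share 18 bases, CC84DRAFT_202399 had a lowest of 0.222, a median of 1.14 and a highest of 2.08 in control day 1 libraries, against 5.94, 6.25 and 4.47 in control day 0 libraries. CC84DRAFT_1179654 had a lowest of 39.04, a median of 48.4 and a highest of 51.1 in control day 1 libraries, against 14.4, 8.38 and 8.50 in control day 0 libraries. The partners moved apart (log2 fold change -1.99, SE 0.37, limma adjusted p = 0.000247 for CC84DRAFT_202399, and log2 fold change 2.17, SE 0.21, limma adjusted p = 3.95e-08 for CC84DRAFT_1179654).

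At day 6 CC84DRAFT_48668 on the plus strand (scaffold NW_017253360.1, 1701223-1703701) and CC84DRAFT_1192188 on the minus strand (1703230-1704839), with 472 shared bases, rose together. CC84DRAFT_48668 had 2.11, 2.84, 3.3598, 4.66 and 3.42 scaled CPM in control day 6 libraries, against 0.585, 0.829 and 0.413 in control day 0 libraries. CC84DRAFT_1192188 had 10.8, 4.93, 7.47, 5.60 and 7.36 in control day 6 libraries, against 4.86, 0.382 and 0.413 in control day 0 libraries. Both cleared day 0 (log2 fold change 1.75, SE 0.36, limma adjusted p = 0.00157 for CC84DRAFT_48668, and log2 fold change 2.20, SE 0.51, limma adjusted p = 0.00351 for CC84DRAFT_1192188), the second by a narrow gap to control day 0 replicate 1. Without control day 0 replicate 2 the adjusted p of CC84DRAFT_1192188 was 0.0504. With selenite at day 1 the same partners were opposite (log2 fold change 1.89, SE 0.30, limma adjusted p = 5.03e-06 for CC84DRAFT_48668, and log2 fold change -4.42, SE 0.42, limma adjusted p = 1.35e-09 for CC84DRAFT_1192188). CC84DRAFT_1164226/CC84DRAFT_734704, which share 59 bases on scaffold NW_017253364.1, fell together with age and had r = 0.92 over all libraries. CC84DRAFT_1164226 had 69.8, 77.6, 50.6, 66.8 and 58.5 in control day 6 libraries, against 90.4, 167 and 158 in control day 0 libraries (log2 fold change -1.06, SE 0.18, limma adjusted p = 0.000397). CC84DRAFT_734704 had 26.2, 37.03, 33.01, 37.6 and 24.1 in control day 6 libraries, against 70.9, 178 and 201 in control day 0 libraries (log2 fold change -2.12, SE 0.25, limma adjusted p = 1.1e-05). Control day 0 replicate 1 was the lowest of its group in both genes and still lay above all day 6 controls.

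CC84DRAFT_1115366 on the plus strand (scaffold NW_017253362.1, 2317541-2318571) and CC84DRAFT_1162575 on the minus strand (2318252-2320519) shared 320 bases and parted with age. CC84DRAFT_1115366 had 12.1, 5.15, 15.04, 5.41 and 5.84 scaled CPM in control day 6 libraries, against 0.945, 1.69 and 0.482 in control day 0 libraries (log2 fold change 2.52, SE 0.52, limma adjusted p = 0.00171). CC84DRAFT_1162575 had 22.1, 25.2, 17.6, 24.6 and 28.6 in control day 6 libraries, against 44.2, 41.6 and 48.4 in control day 0 libraries (log2 fold change -0.92, SE 0.24, limma adjusted p = 0.00878). The groups did not overlap for either gene. The call of CC84DRAFT_1162575 was lost under library size alone, without control day 0 replicate 3, and without control day 6 replicates 1 and 3 together.

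The size of the overlap was set beside the response. Among the 274 tested pairs sharing 1 to 100 bases, selenite at day 1 moved 64 together and 49 apart, and at day 6 it moved 36 together and 32 apart. In the 243 sharing more, up to 500 bases, it moved 58 together and 52 apart at day 1, and 30 and 33 at day 6. None of the 6 tested pairs with over 500 shared bases had both partners called on either day. Over all 12572 tested consecutive pairs, 12.6% had both partners higher, 12.6% both lower and 16.0% opposite at day 1. At day 6 these shares were 10.1%, 6.34% and 8.96%. The counts by size carry no test, and no effect of overlap size is read from them.

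In 3 of the 4 longest overlaps a partner averaged under 1 scaled CPM in every group. CC84DRAFT_495544 on the plus strand (scaffold NW_017253361.1, 4208484-4209972) and CC84DRAFT_494137 on the minus strand (4209217-4210234) shared 756 bases, 65.6% of the exon length of the first and 74.3% of the second. CC84DRAFT_494137 had 0.766, 0, 0, 2.19 and 1.07 scaled CPM in selenite day 1 libraries and 0.958, 0.222, 0.882 and 0.474 in selenite day 6 libraries, and no read in any of the 14 control libraries. CC84DRAFT_495544 had 3.64, 7.24, 7.98, 7.06 and 12.9 in selenite day 1 libraries and a lowest of 5.27, a median of 8.20 and a highest of 11.3 in control day 1 libraries. CC84DRAFT_494137 passed on both days (log2 fold change 1.08, SE 0.32, limma adjusted p = 0.00449 at day 1, and log2 fold change 1.13, SE 0.35, limma adjusted p = 0.0102 at day 6), by fitted values that depend on the added constant, and its groups overlapped at day 1, where 2 selenite libraries had no read. CC84DRAFT_495544 passed on neither (log2 fold change -0.14, SE 0.27, limma adjusted p = 0.672 at day 1, and log2 fold change 0.03, SE 0.30, limma adjusted p = 0.934 at day 6).

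CC84DRAFT_1166990 (scaffold NW_017253367.1, 1959931-1961446) and CC84DRAFT_964261 (1960783-1961585) shared 664 bases, 82.7% of the exon length of the second, which was under the filter with 18 reads in selenite day 1 libraries and none in control day 1 libraries. CC84DRAFT_1166990 had 44.1, 51.2, 85.4, 60.99 and 65.1 scaled CPM in selenite day 1 libraries and a lowest of 23.04, a median of 25.9 and a highest of 32.3 in control day 1 libraries, which did not overlap (log2 fold change 1.14, SE 0.17, limma adjusted p = 1.56e-06). CC84DRAFT_1224906 on the plus strand (scaffold NW_017253360.1, 1384280-1387222) and CC84DRAFT_1224913 on the minus strand (1386584-1388292) shared 639 bases. CC84DRAFT_1224906 had 1.28, 3.69, 1.32, 1.19 and 1.31 in selenite day 1 libraries and a lowest of 3.29, a median of 4.33 and a highest of 4.96 in control day 1 libraries (log2 fold change -1.15, SE 0.30, limma adjusted p = 0.00186), and the ranges overlapped through a single selenite library. CC84DRAFT_1224913 averaged 0.382 ± 0.519 in selenite day 1 libraries and 0.400 ± 0.308 in control day 1 libraries (log2 fold change -0.13, SE 0.30, limma adjusted p = 0.727). CC84DRAFT_1167700 on the plus strand (scaffold NW_017253369.1, 502361-503947) and CC84DRAFT_1167701 on the minus strand (503342-504185) shared 606 bases and moved apart with age. CC84DRAFT_1167701 had a lowest of 18.8, a median of 21.4 and a highest of 38.4 scaled CPM in control day 1 libraries, against 5.02, 8.44 and 5.85 in control day 0 libraries. CC84DRAFT_1167700 had a lowest of 1.48, a median of 3.20 and a highest of 4.34 in control day 1 libraries, against 11.5, 10.8 and 10.3 in control day 0 libraries. The first rose and the second fell (log2 fold change 1.83, SE 0.32, limma adjusted p = 0.000109 for CC84DRAFT_1167701, and log2 fold change -1.74, SE 0.45, limma adjusted p = 0.00488 for CC84DRAFT_1167700), and the pair had r = -0.65 over all libraries.

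The authors' deposited table for day 1 listed 1003 of the members, 270 higher and 344 lower at its adjusted p under 0.05, and called 60.8% of its 12045 genes. Among 434 pairs with both partners in the authors' deposited table for day 1, 86 moved together and 81 apart. The authors' deposited table for day 6 listed 1050 members, 231 higher and 282 lower, and called 47.6% of its 12787 genes, with 50 pairs moving together and 63 apart among 477. Moves of all consecutive pairs were not counted in the authors' deposited tables for day 1 and day 6, so these pair counts describe the members alone. For CC84DRAFT_827500 the log2 fold change in the authors' deposited table was 10.82 at day 1 and 8.08 at day 6. In the authors' deposited table of genes with a time-course profile, 429 members (36.7%) appeared, against 30.4% of all genes. Both partners were in it for 79 pairs, and in 25 of these (31.6%) they stood in the same one of its 5 clusters, against 26.2% in convergent pairs with a gap of up to 500 bases, 46.4% in divergent pairs with such a gap and 37.7% in all consecutive pairs, all counted from the authors' deposited table.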

How the data were processed

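Reads per gene were measured in 23 libraries of 5 groups, taken from the titles in the labels. The RNA libraries were made with a stranded kit for messenger RNA, per the labels' protocols. The submitters' processing notes name edgeR 3.36.0, R 4.1.0, Subread 2.0.6 with featureCounts, STAR 2.7.1a and Trimmomatic 0.39. For the genome build, the sources used here give no name. Positions are 1-based, as in the authors' deposited count table, which gives counts for 13 of its 15164 genes and exon positions for all, so levels came from the authors' deposited CPM table. The authors counted with strand option 2, per the file headers. With library totals read from the 13 genes, 100% of 348772 CPM values were whole numbers of reads (tolerance 0.001), and the counts of all 13 genes were met. The authors' deposited comparison tables hold log2 fold changes, a score (the F statistic), p-values and adjusted p-values, and the authors' deposited time-course table holds cluster numbers.

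CPM values were divided by TMM factors (edgeR 4.0.16), and log2(scaled CPM + 0.5) was fitted with limma 3.58.1 with a trend in R 4.3.3, on 5 group means over all 23 libraries, for 13676 genes kept by filterByExpr (minimum count 10, minimum total 15). Fold changes are on that log2(value + 0.5) scale, which understates changes of low genes. The log2 level of the plus-strand gene minus that of the minus-strand gene was fitted in the same way over 12572 consecutive pairs with both genes kept. Benjamini-Hochberg adjustment ran over all genes or all pairs, with a threshold of 0.05. Levels of different genes were compared per kilobase of exon. Intervals for single counts are not given, and depth limits low genes: 1 read was worth 0.0306 to 0.0430 CPM. The fits were also run on data simulated for selenite day 1, with 100 genes changed by each fold. They recovered 34% of 2-fold and 67% of 4-fold changes among 13440 genes, and 7.45% and 50% of such changes among 12186 pair ratios. False calls were 7.34% of the genes called and 5.61% of the ratios called. In the data 62.5% of genes were called at selenite day 1, which makes the adjusted threshold less strict than in the simulation. The recovered shares therefore do not give how many changes the fits of the data missed. Whether same-numbered replicates pair the libraries is not in the labels and was not settled by the values. Of 39 same-numbered library pairs, 6 had deviations correlated above 0.1, and the range was -0.21 to 0.40. Between control day 0 and control day 1 the mean was 0.136 for same numbers and -0.024 for others. It was 0.104 and -0.019 between control day 1 and control day 6, and -0.017 and 0.004 between selenite day 1 and selenite day 6. The main fit used no block.

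The members and lists were chosen with earlier results of these data known. Pairs named in the text are the 4 longest overlaps, the largest changes in each comparison among pairs with partners called and not overlapping between groups (both higher, both lower, opposite), the 2 largest differences between days, 2 abundant pairs, 3 pairs farthest apart per kilobase, the highest and lowest 2 correlations, and 5 pairs on each side of the rule's border, with exceptions marked where they stand. Alternatives covered scaling, the added constant, the filter, the groups fitted, a replicate block, the count tests of edgeR and DESeq2 1.42.0 on the recovered reads, the definition of a pair, and each library left out. No sequence of the overlaps is shown.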

Additional observations from a re-analysis of the deposited data

Results flagged for a closer look

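Of 124 groups of library values examined, 12 held a library set apart from the rest of its group. The values were the log2 level of the plus-strand minus the minus-strand gene in named pairs, and the share of reads in member genes. All 12 were of the log2 level. About 1 in 20 such groups would be set apart in data without any such library. Control day 0 libraries were not examined, nor were pairs named only for the rule's border, nesting or the most abundant partner. In selenite day 1 libraries, CC84DRAFT_1224906/CC84DRAFT_1224913 stood at 0.098 in replicate 5 and at 1.588 to 1.91 in the others. In the same group, replicate 3 of CC84DRAFT_1151751/CC84DRAFT_1220165 stood at -3.35, against -0.957 to -0.335 in the others, and replicate 3 of CC84DRAFT_1207156/CC84DRAFT_1166068 at -0.174, against -1.923 to -1.499. CC84DRAFT_790744/CC84DRAFT_790702 stood at 7.542 in replicate 4, the library with most reads of the quiet partner, and at 9.428 to 10.141 in the others.

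In selenite day 6 libraries, replicate 2 was set apart in CC84DRAFT_1174263/CC84DRAFT_1115627, at -3.91 against -3.146 to -3.002, and in CC84DRAFT_558160/CC84DRAFT_558529, at 0.029 against 1.051 to 1.257. Replicate 3 of the same group was set apart in CC84DRAFT_1115366/CC84DRAFT_1162575, at -2.441 against -3.792 to -3.645. In control day 1 libraries, replicate 1 stood at 2.573 in CC84DRAFT_1174263/CC84DRAFT_1115627, against -0.314 to 0.749, and at 1.851 in CC84DRAFT_162131/CC84DRAFT_1160113, against 0.896 to 1.113. Replicate 2 stood at 2.613 in CC84DRAFT_1165436/CC84DRAFT_827500, against 1.32 to 1.767, and replicate 4 at -0.819 in CC84DRAFT_160474/CC84DRAFT_1160059, against -1.358 to -1.172. In control day 6 libraries, replicate 2 of CC84DRAFT_1198791/CC84DRAFT_1127479 stood at 0.217, against -0.05 to 0.023.

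In 8 of 15 named pairs the change of the partners' log2 ratio with selenite differed between day 6 and day 1 by the limma test of the difference itself. The same test passed in 44.6% of the tested overlapping pairs and in 41.9% of all consecutive pairs. The 15 were named for large changes with selenite on a day or between days, so the count of 8 is no independent evidence. The largest differences were in CC84DRAFT_1167970/CC84DRAFT_1190033 (1.56 at day 6 and -4.384 at day 1, a difference of 5.944, adjusted p = 7.66e-05), and in CC84DRAFT_1207156/CC84DRAFT_1166068 (0.215 and 6.063, -5.848, adjusted p = 1.23e-05), both chosen for this difference, so it is no independent evidence. CC84DRAFT_1103203/CC84DRAFT_363551 changed by 6.047 at day 6 and 0.322 at day 1, a difference of 5.725 (limma adjusted p = 3.11e-06). CC84DRAFT_1174263/CC84DRAFT_1115627 changed by -7.319 and -2.373, a difference of -4.946 (limma adjusted p = 2.22e-05). CC84DRAFT_1165436/CC84DRAFT_827500 changed by -7.534 and -12.382, a difference of 4.848 (limma adjusted p = 3.5e-07). CC84DRAFT_1151148/CC84DRAFT_1166727 changed by -4.014 and -0.481, a difference of -3.533 (limma adjusted p = 0.00932). CC84DRAFT_1169657/CC84DRAFT_1131614 changed by 7.193 and 9.149, a difference of -1.956 (limma adjusted p = 0.0112). CC84DRAFT_1111777/CC84DRAFT_1138041 changed by 1.051 and -0.547, a difference of 1.598 (limma adjusted p = 0.00535).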

How the results depend on the processing

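Alternatives were computed for 52 calls of genes and ratios, each in a comparison for which its pair was named. Of 1746 alternative values, 1742 kept direction and call, 4 kept direction and lost the call, and none reversed. Calls in pairs named only for overlap length, abundance, unlike levels, correlation, nesting or the rule's border were not among them. For the pairs named for the difference between days, only the ratio was covered. The 4 belong to CC84DRAFT_1192188 and CC84DRAFT_1162575 in control day 6 against day 0. Of 775 alternative counts, 728 stayed within 1.5 times. The count test on recovered reads (edgeR's quasi-likelihood) called 699, 514, 407, 292 and 246 members for selenite day 1, selenite day 6, the difference between days, control day 1 and control day 6 against day 0.

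Requiring 100 shared bases left 293 pairs, with 360, 265, 231, 151 and 132 members and 165, 132, 110, 70 and 59 ratios called in that order, and 52 opposite and 60 same-way pairs at selenite day 1, 34 and 33 at selenite day 6, 8 and 14 at control day 1, 8 same-way pairs at control day 6, and 21, 20, 8 and 4 pairs with a different higher partner at selenite day 1, selenite day 6, control day 1 and control day 6; these fall because fewer pairs are counted. Library size alone gave 494 members and 88 same-way pairs for control day 1. Fitting only the compared groups gave 15 same-way pairs for control day 6. The fit with the replicate number as a block gave 19 opposite pairs for control day 6 and moved no other count beyond 1.5 times. Without control day 6 replicates 1 and 3 together, chosen after seeing the data, selenite day 6 had 37 opposite pairs, and control day 6 had 142 members, 49 ratios, 5 opposite and 5 same-way pairs. The cause was not tested for the alternatives other than the 100-base rule.

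Leaving out 1 library at a time gave 675 to 723 members, 315 to 341 ratios, 90 to 104 opposite and 110 to 124 same-way pairs for selenite day 1, 472 to 550, 248 to 292, 50 to 72 and 48 to 69 for selenite day 6, 418 to 515 members and 202 to 242 ratios for the difference between days, 226 to 332, 106 to 155, 10 to 20 and 16 to 33 for control day 1, and 106 to 298, 28 to 118, 2 to 14 and 3 to 28 for control day 6. Pairs with a different higher partner, for which the alternatives were chosen after seeing the data, numbered 40 to 51, 39 to 51, 14 to 18 and 10 to 17 for selenite day 1, selenite day 6, control day 1 and control day 6. With 3 day 0 libraries and 1 read worth at least 0.0306 CPM, changes with age and changes of genes with few reads are the least firmly measured.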
